A study of Mus musculus with 24 samples.

Results

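Hepatokines are proteins that the liver secretes and that act on other tissues, and 10 genes of this kind other than Fgf21 were followed in mouse liver: Gdf15, Inhbe, Inhba, Fst, Tsku, Lect2, Enho, Fetub, Ahsg and Rbp4. They were chosen by name, by taking every array probe for genes (no control probes) whose gene name equals one of these symbols. This gave 11 probes of 56605, 1 for each gene except Enho, which had 2. All 10 genes and 11 probes passed the filter on dim probes and stood among the 21331 genes tested.

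Liver RNA of 24 male C57Bl/6J mice was read on oligonucleotide arrays in one colour, an array for each animal, with 6 mice in each of 4 groups. LWT mice express the nuclear receptor PPARα in hepatocytes and LKO mice do not, according to the series title. The allele, the driver of its deletion and the age of the mice are not given in the sources used here. CL316243, which activates the beta3 adrenergic receptor (the groups are labelled Beta3), was given by gavage at 3 mg/kg in 0.5% carboxymethyl cellulose at Zeitgeber time 10 h, and livers were collected at 16 h. The vehicle groups are LWT vehicle and LKO vehicle, and all mice ate a standard diet without restriction. The comparisons ask whether the agonist changes these transcripts and whether the change depends on hepatocyte PPARα. Beta3 receptors lie mainly on fat cells, where their activation releases fatty acids, so the liver response can follow from signals made elsewhere.

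The members act in different ways. Gdf15 is a stress-induced member of the TGF-beta superfamily that signals through a receptor in the hindbrain, and it is a known target of the integrated stress response, in which translation control raises the transcription factor ATF4. Inhba and Inhbe encode the activin beta A and beta E chains, Fst encodes follistatin, which binds and neutralises activins, and Tsku encodes tsukushi, a small secreted leucine-rich protein. Lect2 is a secreted chemotactic protein, Enho encodes adropin, Ahsg and Fetub encode fetuin-A and fetuin-B, and Rbp4 carries retinol in plasma.

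Sequences are shown for Inhbe and Gdf15, the 2 members that rose with CL316243 in LWT, and for the Fst probe, on which a single mouse stood far above all others. The 250 bases before the start of Inhbe lie at chr10:127351849-127352098 on the minus strand, and those before the outer of both starts listed for Gdf15 lie at chr8:70632457-70632706 on the minus strand (RefSeq, build GRCm38.p6). Capitals mark a match to the motif TGATGNAA, the core shared by C/EBP-ATF elements, which are bound by ATF4 with C/EBP partners.
Inhbe upstream: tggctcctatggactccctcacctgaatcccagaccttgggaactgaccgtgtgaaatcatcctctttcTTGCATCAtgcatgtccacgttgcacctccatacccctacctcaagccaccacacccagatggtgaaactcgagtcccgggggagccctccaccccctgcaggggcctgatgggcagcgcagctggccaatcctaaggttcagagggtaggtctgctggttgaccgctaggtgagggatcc
Gdf15 upstream: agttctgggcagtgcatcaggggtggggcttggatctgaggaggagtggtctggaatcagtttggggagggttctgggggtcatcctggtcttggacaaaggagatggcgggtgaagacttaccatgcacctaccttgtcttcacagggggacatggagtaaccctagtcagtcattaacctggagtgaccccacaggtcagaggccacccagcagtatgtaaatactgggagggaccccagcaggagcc
Fst probe: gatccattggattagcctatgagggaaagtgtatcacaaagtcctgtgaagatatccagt
The Fst probe has 60 bases and spans chr13:115244692-115245364 of build mm9 on the minus strand, so that its bases are not contiguous in the genome.

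Windows from 250 bases before to 50 bases after a start were at hand for 8 members (12 windows), and none was matched for Enho or Fst. On both strands, TGATGNAA was found in 2 of the 12 windows, against 3.97% of 32851 windows of that length. In Inhbe the letters are TTGCATCA, beginning at position -181 from the start, and in Rbp4 they are TGATGAAA, at position -76. The E-box CACGTG was found in 1 window, at position -83 from the inner Gdf15 start, and in 7.15% of all windows. The cAMP response element TGACGTCA (1.79% of all windows) and the direct repeat DR1, a form bound by PPARα with its partner RXR (0.0396%), were found in 0 of the 12. Matches of different motifs did not overlap in these windows. Binding was not measured, and letters outside these windows were not searched.

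Levels are given as log2 of the background-subtracted signal minus the log2 of the array's 75th percentile, so that 0 equals that percentile and a difference of 1 is a doubling. The 75th percentile was 397.4 to 577.7 over the 24 arrays, and between 26985 and 34202 of 56605 probes lay well above background. Ppara, as the check of genotype, ran from 4.80 to 5.18 in LKO vehicle and 5.46 to 5.93 in LWT vehicle. Under CL316243 it ran from 3.06 to 4.85 in LKO and 5.70 to 6.42 in LWT. LKO minus LWT was -0.68 under vehicle, not called (adjusted p 0.158, limma), and -1.91 under CL316243 (adjusted p 3.60e-07, limma). A second Ppara probe ran from 3.31 to 3.73 in LKO vehicle and 4.18 to 4.69 in LWT vehicle. Under CL316243 this second probe ran from 1.81 to 3.53 in LKO and 4.51 to 5.28 in LWT. The genotypes did not overlap under either treatment with either probe, but the probes may lie outside the deleted part. The replicate 3 mouse of LKO CL316243 stood apart: it was an isolated highest or lowest value of its group for 7.42% of genes, against 0.225% to 2.62% for the other mice. Results that rest on it are given with and without it. The hepatocyte marker Alb, which encodes albumin, ran from 9.82 to 10.24 over all mice.

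With CL316243 in LWT, 3 of the 10 members were called by limma at an adjusted p under 0.05 (Benjamini-Hochberg over all 21331 genes), 2 higher and 1 lower. Of all genes, 38.3% were called in this comparison. Gdf15 and Inhbe rose and Enho fell. In LKO, 6 of 10 were called, 3 higher and 3 lower, against 40.3% of all genes: Gdf15, Fetub and Fst rose, and Enho, Lect2 and Tsku fell. The effect of CL316243 differed between genotypes for 1 member, Inhbe, with a lower effect in LKO, where 5.41% of all genes were called (2.17% higher and 3.24% lower). Between genotypes, 0 members were called under vehicle (1.18% of all genes; 0 with limma's trend and robust settings, and 1, Lect2, at an unadjusted p under 0.05), and 2 were called under CL316243, Gdf15 (higher in LKO) and Inhbe (lower), against 15.9% of all genes (7.74% higher and 8.17% lower). Without LKO CL316243 replicate 3, the counts of called members were 4 in LWT, 5 in LKO, 2 for the interaction, 1 between genotypes under vehicle and 3 under CL316243, against 41.7%, 36.7%, 7.2%, 1.42% and 18.6% of all genes.

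All 6 mice of one group lay beyond all 6 of the other for 2 members in LWT (20.4% of all genes, 10% higher and 10.4% lower) and for 5 in LKO (20.8%, 10.5% higher and 10.4% lower). Between genotypes it was 1 under vehicle, Fst (1.8% of all genes, 0.703% higher and 1.1% lower), and 1 under CL316243, Inhbe (6.57%, 2.53% higher and 4.04% lower). The median log2 change over the 10 members was 0.02 in LWT and 0.10 in LKO, beside 0.01 and 0.03 over all genes, since members moved in both directions. The arrays measured RNA of whole liver, where fewer cells of a type and less RNA per cell cannot be told apart. With the slide as a block, and with slide and row, each of these 5 counts of called members was the same. In the order LWT, LKO, interaction, vehicle and CL316243, the slide block called 37.6%, 39.8%, 4.94%, 1.07% and 15.2% of all genes. With slide and row these shares were 37.3%, 39.4%, 4.72%, 0.98% and 15.1%.

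**Figure D1:**
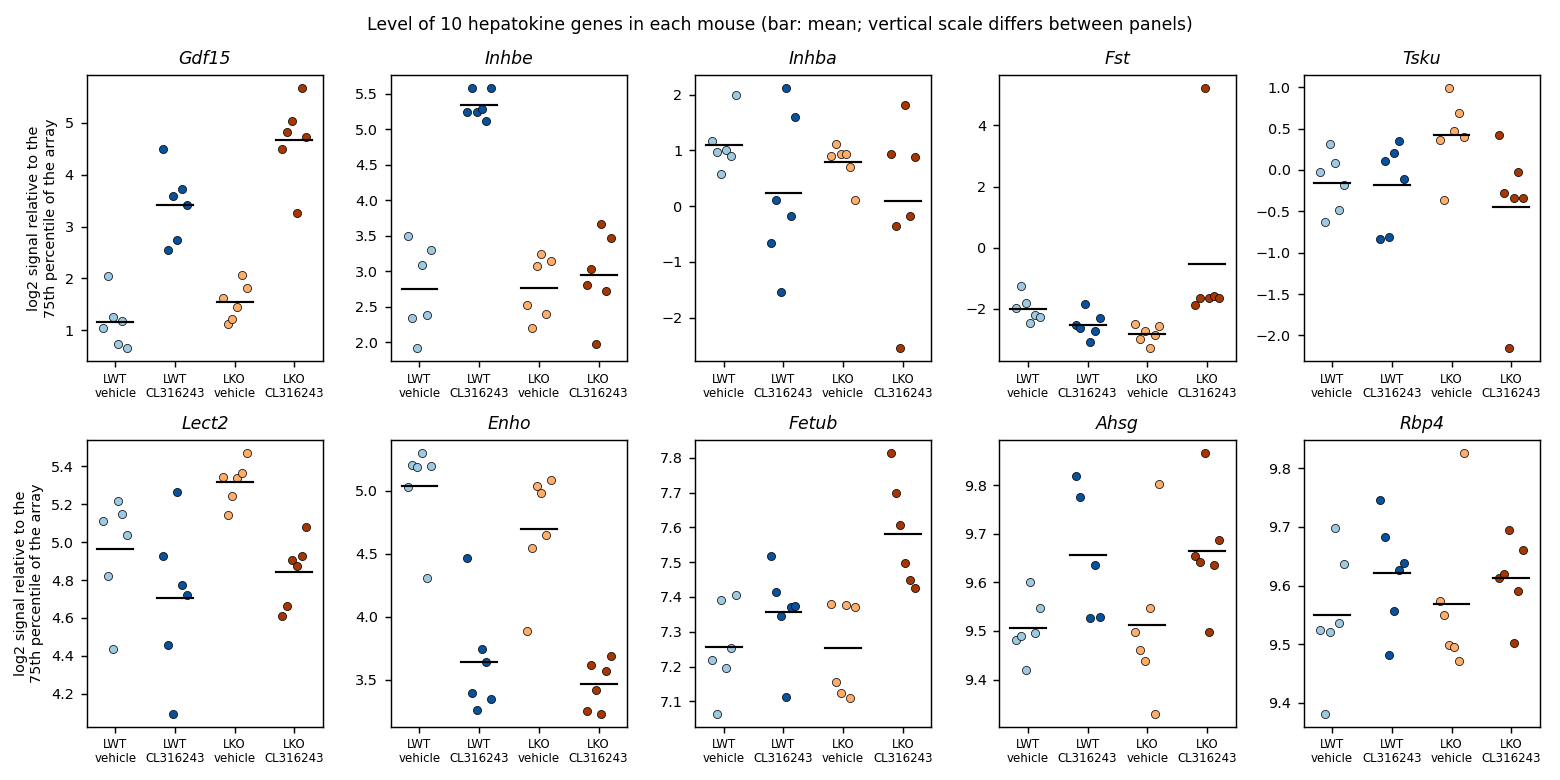
Level of each member in each of 24 mice, in log2 units above or below the 75th percentile of its array, with 1 point per mouse and a bar at the group mean (6 mice per group, 5 for Ahsg in LWT CL316243). Gdf15 is higher with CL316243 in both genotypes, Inhbe is above 5 in each LWT CL316243 mouse and at most 3.66 in the other groups, and 1 LKO CL316243 mouse has an Fst level of 5.23.

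Gdf15 (probe at chr8:73153293-73153352, build mm9, minus strand) rose with CL316243 in both genotypes. In LWT vehicle its level had a lowest value of 0.66, a median of 1.12 and a highest value of 2.05, and in LWT CL316243 2.54, 3.51 and 4.49. In LKO vehicle it was 1.12, 1.53 and 2.07, and in LKO CL316243 3.26, 4.77 and 5.68. Treated and vehicle mice did not overlap in either genotype, and the LKO CL316243 group was the highest of the 4. The log2 change was 2.26 (SE 0.34, adjusted p 1.89e-05, limma, 6 of 6 mice above the vehicle mean) in LWT, a 4.79-fold increase, and 3.12 (SE 0.34, adjusted p 5.93e-07, 6 of 6 mice) in LKO, an 8.67-fold increase. Within the 3 slides the change ran from 1.52 to 3.15 in LWT and from 2.71 to 3.40 in LKO.

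The Gdf15 effects in both genotypes were not shown to differ: LKO minus LWT was 0.86, with a 95% interval from -0.14 to 1.85 and an adjusted p of 0.369 (limma). Under CL316243, however, Gdf15 was higher in LKO than in LWT by 1.25 (SE 0.34, adjusted p 0.0131, limma, 5 of 6 LKO mice above the LWT mean), with overlap between the groups and values of 0.36 to 1.85 within slides. This call was lost in a fit of those 12 mice alone (adjusted p 0.0705). Under vehicle the genotypes differed by 0.39, which was not called (adjusted p 0.917, limma).

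The receptor of GDF15 and the integrated stress response, a list of 15 genes, was described beside it. Gfral and Ret, which form the receptor, did not pass the filter on dim probes and were not tested. Of the other 13 genes, 6 rose in LWT and 0 fell, where 18.9% of all genes rose. In LKO 12 rose and 0 fell (20.9% of all genes rose), and under CL316243 6 were higher in LKO than in LWT (7.74%). The median change over the 13 was 0.73 in LWT and 1.42 in LKO. Without LKO CL316243 replicate 3, 12 rose in LKO, 4 were higher in LKO under CL316243, and the median LKO change was 1.12.

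The 4 genes of this list with the largest called changes in LWT also rose in LKO. Psat1, an enzyme of serine synthesis, rose by 2.45 in LWT (adjusted p 0.00417) and 3.73 in LKO (adjusted p 8.93e-05). Chac1, which degrades glutathione, rose by 2.43 (adjusted p 0.00261) and 3.94 (adjusted p 2.50e-05). The transcription factors Atf3 and Atf5 rose by 1.73 and 1.07 in LWT (adjusted p 0.0204 and 9.63e-06) and by 2.86 and 1.06 in LKO (adjusted p 0.000416 and 1.40e-05). Of the 13 genes, the interaction was called for Eif2ak3, the endoplasmic reticulum kinase PERK, which rose by 0.57 in LWT and 1.45 in LKO (difference 0.88, SE 0.25, adjusted p 0.0417, limma). Without LKO CL316243 replicate 3 the interaction was called for 2 of the 13. Over all genes it was called for 5.41% with all mice and 7.2% without that mouse.

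**Figure D2:**
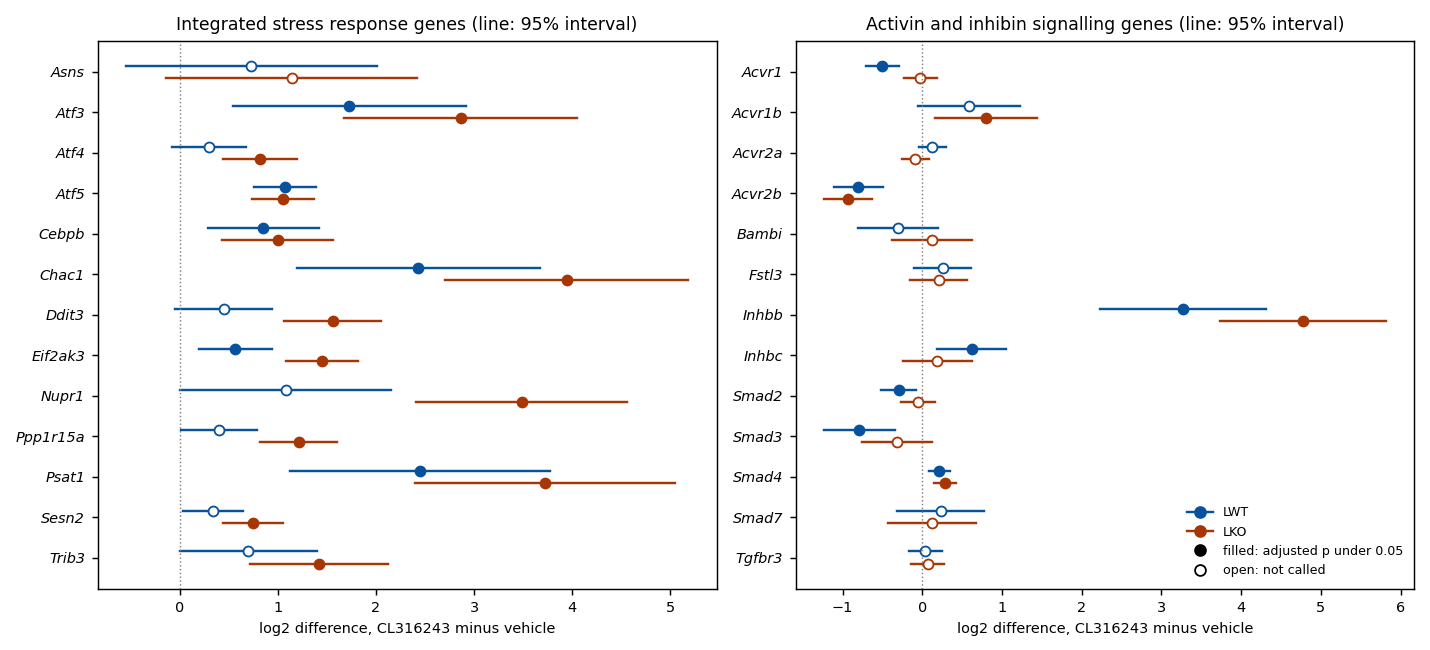
Log2 change with CL316243 minus vehicle in LWT (blue) and LKO (orange) for the 13 tested genes of the integrated stress response list and the 13 tested genes of the activin and inhibin list. Lines are 95% intervals from limma, filled points have an adjusted p under 0.05, and 12 of 13 points for LKO on the left are filled.

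Inhbe (probe at chr10:126786719-126786778, mm9, minus strand), the activin beta E chain, rose in LWT and was not called in LKO. The lowest, median and highest levels were 1.91, 2.74 and 3.50 in LWT vehicle and 5.12, 5.27 and 5.59 in LWT CL316243. They were 2.20, 2.80 and 3.23 in LKO vehicle and 1.97, 2.92 and 3.66 in LKO CL316243. Every LWT CL316243 mouse lay above every mouse of the other groups, which overlapped each other. The LWT CL316243 mice were also close together, with an SD of 0.19, against 0.44 to 0.63 in the other groups.

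The Inhbe change with CL316243 was 2.59 in LWT (SE 0.28, adjusted p 2.16e-07, limma, 6 of 6 mice), a 6.02-fold increase. In LKO it was 0.18 (95% interval -0.39 to 0.75, adjusted p 0.628). The difference between these effects was -2.41 (SE 0.39, adjusted p 0.00038, limma), and it ran from -3.44 to -1.72 within slides. Without LKO CL316243 replicate 3 it was -2.21 (adjusted p 0.000394). Under CL316243, LKO lay below LWT by 2.40 on the log2 scale (difference -2.40, SE 0.28, adjusted p 1.03e-06, 6 of 6 mice). Under vehicle the genotype difference was 0.00, with a 95% interval from -0.57 to 0.58 (adjusted p 0.998, limma).

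Inhba (probe at chr13:16118634-16118693, mm9, plus strand), the activin beta A chain, was not called in any comparison, and its levels spread widely under CL316243. The lowest, median and highest levels were 0.57, 0.99 and 1.99 in LWT vehicle and -1.55, -0.04 and 2.13 in LWT CL316243. They were 0.11, 0.91 and 1.12 in LKO vehicle and -2.55, 0.35 and 1.82 in LKO CL316243. Treated mice lay both above and below the vehicle mice, with SDs of 1.39 and 1.52, against 0.48 and 0.36 under vehicle. The change was -0.86 in LWT (95% interval -2.08 to 0.36, adjusted p 0.266, limma) and -0.70 in LKO (95% interval -1.92 to 0.52, adjusted p 0.366). The lowest LKO CL316243 value came from replicate 3, and without it the LKO change was -0.17 (adjusted p 0.833).

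Fst (probe at chr13:115244692-115245364, mm9, minus strand) encodes follistatin, the activin antagonist. Its lowest, median and highest levels were -2.48, -2.08 and -1.26 in LWT vehicle and -3.09, -2.57 and -1.84 in LWT CL316243. They were -3.29, -2.79 and -2.50 in LKO vehicle and -1.86, -1.64 and 5.23 in LKO CL316243. The highest value, from replicate 3, was a processed signal of 15556, and the next in that group was -1.58. The spot was neither flagged as an outlier nor saturated, and the authors' deposited series table gives 14.04 (log2) for it, against 7.58 for the next mouse.

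In LKO, Fst rose with CL316243 by 2.29 (SE 0.80, adjusted p 0.0251, limma, 6 of 6 mice), or by 1.14 without that mouse (SE 0.20, adjusted p 0.000161). The call was lost in a fit of the 12 LKO mice alone (adjusted p 0.11). Treated and vehicle LKO mice did not overlap, with or without it. In LWT the change was -0.52 (adjusted p 0.65), which was called without that mouse at the same size (SE 0.19, adjusted p 0.0348). The difference between the effects was 2.81 (SE 1.13, adjusted p 0.169) with all mice and 1.66 (SE 0.28, adjusted p 0.000568) without it. Between genotypes, LKO was lower under vehicle by 0.82 on the log2 scale (difference -0.82, adjusted p 0.94, limma). The groups did not overlap, and the difference was called without that mouse (adjusted p 0.0309, limma). That mouse is in neither vehicle group nor in LWT, so in these comparisons only the shared estimate of spread changed. None of the 13 alternative fits called Fst under vehicle or in LWT (lowest adjusted p 0.0736 and 0.0913, limma). They include fits of only the 12 mice compared. Under CL316243 LKO minus LWT was 1.99 (adjusted p 0.0966) and, without that mouse, 0.84 (adjusted p 0.00504).

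That mouse was not an extreme for Fst alone. Its level exceeded the next mouse of the group by over 4 (log2) for 6 genes, which were picked after their values were seen: Fst, Adamts4, Med22, Akr1b7, Opn1sw and Clic3, by 6.81, 5.07, 4.87, 4.36, 4.17 and 4.05. The summed signal of the 5 tested neutrophil and lymphocyte markers was 45.3 times the 75th percentile in it and 5.18 to 20.7 in the other 5 mice of the group. S100a9 and S100a8 made up most of that 45.3. Their highest levels in the group were 5.07 and 3.19, against -1.01 for Ly6g, 1.15 for Cd3e and -1.79 for Nkg7. The hepatocyte sum was 1990 against 1500 to 1840, and the cholangiocyte sum 14.1 against 7.08 to 12.2. The macrophage sum was 56.3 against 51.6 to 96.4, the stellate sum 96.5 against 101 to 120, and the endothelial sum 35.2 against 36.3 to 48.7. The part of cell makeup in its Fst level was not tested.

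**Figure D3:**
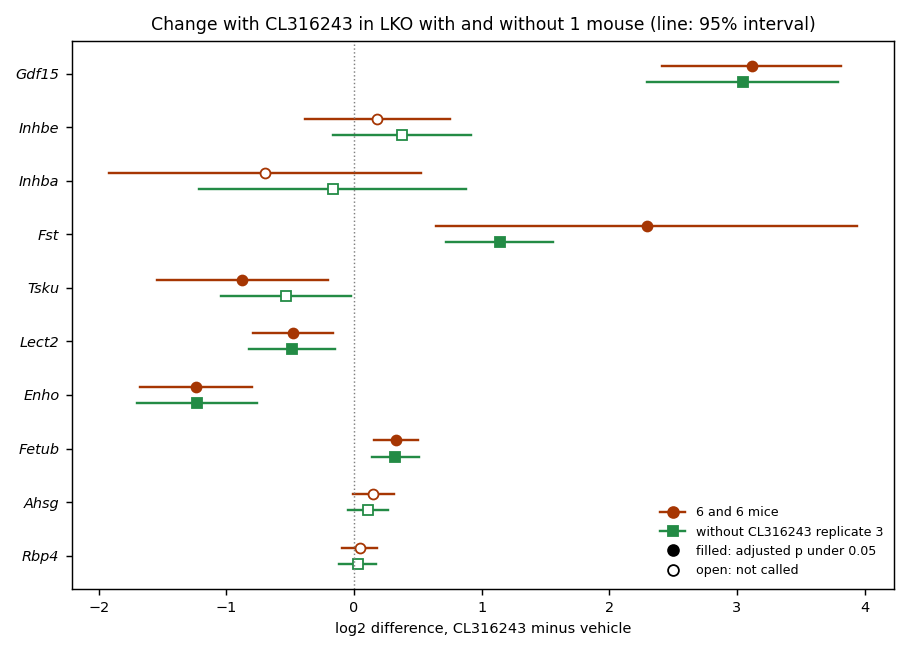
Log2 change with CL316243 in LKO for each member with all 12 LKO mice (circles) and without LKO CL316243 replicate 3 (squares), both from limma. Lines are 95% intervals and filled symbols have an adjusted p under 0.05. The Fst change moves from 2.29 to 1.14 and stays called, and Tsku moves from -0.88 to -0.54 and is no longer called.

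Among the 15 other genes of activin and inhibin signalling, Inha and Acvr1c did not pass the filter. Of the 13 tested, 3 rose and 4 fell in LWT (18.9% and 19.4% of all genes), and 3 rose and 1 fell in LKO (20.9% and 19.4%), or 2 and 1 without LKO CL316243 replicate 3. The largest change was in Inhbb, the activin beta B chain. Its lowest, median and highest levels were -3.65, -2.70 and -2.07 in LWT vehicle and -0.98, 0.85 and 1.48 in LWT CL316243. They were -3.82, -3.40 and -3.10 in LKO vehicle and -0.61, 1.30 and 3.46 in LKO CL316243, so that treated and vehicle mice did not overlap. It rose by 3.27 in LWT (SE 0.50, adjusted p 2.52e-05, limma) and 4.78 in LKO (SE 0.50, adjusted p 4.08e-07). Its effects in both genotypes were not shown to differ (difference 1.51, adjusted p 0.26, limma), unlike those of Inhbe.

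Receptors and signal carriers moved less. Acvr2b, an activin type II receptor, fell by 0.80 in LWT (change -0.80, adjusted p 0.000171) and by 0.93 in LKO (change -0.93, adjusted p 3.78e-05). Smad3, which carries the signal to the nucleus, fell by 0.79 in LWT (change -0.79, adjusted p 0.00521), and its LKO change was -0.32 (adjusted p 0.24). Inhbc, the beta C chain, rose by 0.62 in LWT (adjusted p 0.0228) and its LKO value was 0.19, not called. Acvr1, a type I receptor, fell by 0.51 in LWT (change -0.51, adjusted p 0.00038) with a LKO value of -0.02, and its interaction was called (0.48, SE 0.14, adjusted p 0.049, limma). It was the only 1 of the 13 tested genes with a called interaction (5.41% of all genes).

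Enho, which encodes adropin, fell in both genotypes. With its brighter probe (chr4:41585245-41585304, mm9, minus strand) the lowest, median and highest levels were 4.31, 5.19 and 5.30 in LWT vehicle and 3.26, 3.52 and 4.47 in LWT CL316243. They were 3.89, 4.82 and 5.09 in LKO vehicle and 3.23, 3.50 and 3.69 in LKO CL316243. The groups overlapped in LWT, through 1 vehicle mouse at 4.31 and 1 treated mouse at 4.47, and did not overlap in LKO. The change was -1.40 in LWT (SE 0.21, adjusted p 2.00e-05, limma, 6 of 6 mice below the vehicle mean) and -1.24 in LKO (SE 0.21, adjusted p 8.56e-05, 6 of 6 mice). The effects were not shown to differ, with a difference of 0.16 and a 95% interval from -0.46 to 0.78 (adjusted p 0.837).

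The second Enho probe (chr4:41585257-41585316) shares 48 bases with the first, so it is not independent of it. It gave -1.40 in LWT and -1.20 in LKO, with exact permutation p-values of 0.00433 and 0.00216 (two-sided, over all splits of 6 against 6, where 0.00216 is the smallest possible). Within slides, the brighter probe's change ran from -1.79 to -0.76 in LWT and from -1.54 to -0.75 in LKO. Genotype differences were -0.34 under vehicle (adjusted p 0.785, limma) and -0.18 under CL316243 (adjusted p 0.647), neither called.

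Lect2 (probe at chr13:56643950-56644009, mm9, minus strand) fell in LKO. Its lowest, median and highest levels were 5.14, 5.34 and 5.47 in LKO vehicle and 4.61, 4.89 and 5.08 in LKO CL316243, without overlap. They were 4.43, 5.08 and 5.22 in LWT vehicle and 4.10, 4.75 and 5.26 in LWT CL316243, with overlap. The LKO change was -0.48 (SE 0.15, adjusted p 0.0154, limma, 6 of 6 mice below the vehicle mean), and -0.57 to -0.40 within slides. The LWT change was -0.26 (95% interval -0.57 to 0.06, adjusted p 0.196) and passed without LWT CL316243 replicate 4 (-0.37, adjusted p 0.0431). The effects were not shown to differ (difference -0.22, adjusted p 0.657, limma), so the call in LKO alone does not set the genotypes apart.

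Tsku (probe at chr7:105499491-105499550, mm9, minus strand) had lowest, median and highest levels of -0.62, -0.11 and 0.32 in LWT vehicle and -0.84, -0.01 and 0.35 in LWT CL316243. They were -0.36, 0.43 and 0.995 in LKO vehicle and -2.15, -0.31 and 0.42 in LKO CL316243. All groups overlapped, and the lowest value again came from LKO CL316243 replicate 3. The LKO fall of 0.88 (change -0.88, SE 0.32, adjusted p 0.0346, limma, 6 of 6 mice) was lost without that mouse (-0.54, adjusted p 0.0938). It was also lost without LKO vehicle replicate 3, 4 or 5 (-0.76, -0.87 and -0.82, adjusted p 0.0808, 0.0546 and 0.0664), and within slides it ran from -1.91 to 0.04. In LWT the change was -0.03 (95% interval -0.70 to 0.64), and the effects were not shown to differ (adjusted p 0.346, limma).

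Reported receptors and partners of these members, 8 genes, had 2 higher and 1 lower in LWT (18.9% and 19.4% of all genes) and 0 higher and 2 lower in LKO (20.9% and 19.4%). Gpr19, an orphan receptor reported to respond to adropin, fell by 0.78 in LWT (change -0.78, adjusted p 5.68e-05, limma) and by 0.75 in LKO (change -0.75, adjusted p 8.46e-05), with no overlap between treated and vehicle mice. Met, the receptor of hepatocyte growth factor to which LECT2 is reported to bind, rose by 0.32 in LWT (adjusted p 0.0392) with a LKO value of -0.16 (adjusted p 0.313). The insulin receptor gene Insr, whose product fetuin-A inhibits, rose by 0.25 in LWT (adjusted p 0.0218) with a LKO value of 0.14 (adjusted p 0.201). The interaction was called for 0 of these 8 genes (5.41% of all genes), so their effects were not shown to differ between genotypes.

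**Figure D4:**
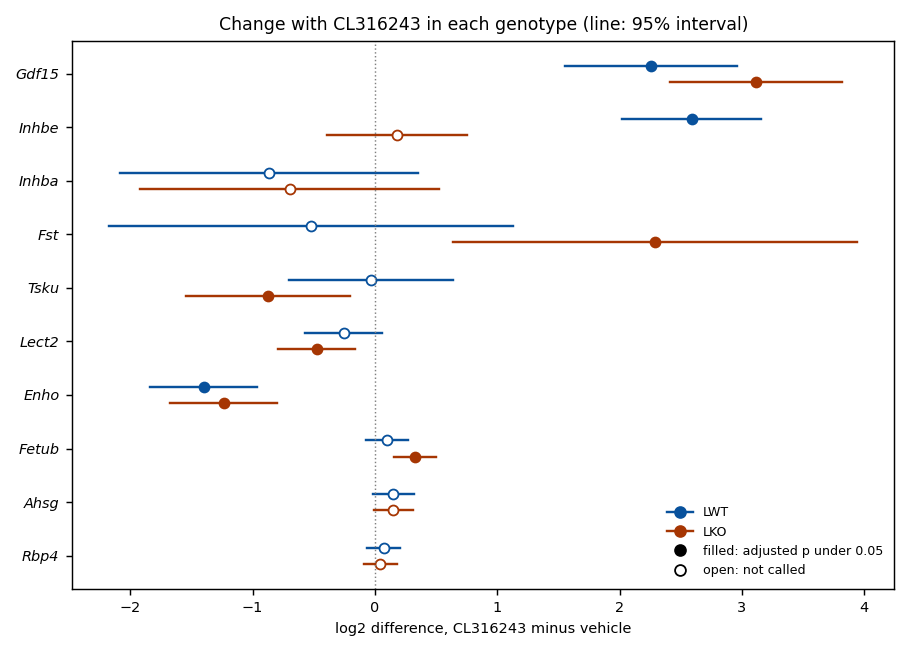
Log2 change with CL316243 minus vehicle for each member in LWT (blue) and LKO (orange), with 95% intervals from limma and filled points at an adjusted p under 0.05. Gdf15 and Enho are filled in both genotypes, and Inhbe is filled at 2.59 in LWT and open at 0.18 in LKO.

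The fetuins and Rbp4, abundant plasma proteins of hepatocytes, moved little. Fetub (probe at chr16:22939736-22939795, mm9, plus strand) had lowest, median and highest levels of 7.11, 7.26 and 7.38 in LKO vehicle and 7.42, 7.55 and 7.81 in LKO CL316243, without overlap. They were 7.07, 7.24 and 7.41 in LWT vehicle and 7.11, 7.37 and 7.52 in LWT CL316243. It rose by 0.33 in LKO (SE 0.08, adjusted p 0.00311, limma, 6 of 6 mice), a 1.26-fold increase, and by 0.23 to 0.41 within slides. The LWT change was 0.10 (95% interval -0.07 to 0.27, adjusted p 0.367), and the effects were not shown to differ (0.23, adjusted p 0.316, limma). LKO minus LWT under CL316243 was 0.23 (adjusted p 0.069).

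Ahsg (probe at chr16:22899415-22899474, mm9, plus strand) was not called. Its lowest, median and highest levels were 9.42, 9.49 and 9.60 in LWT vehicle and 9.53, 9.64 and 9.82 in LWT CL316243, where the spot of replicate 3 was flagged as non-uniform and left out (n = 5). They were 9.33, 9.48 and 9.80 in LKO vehicle and 9.50, 9.65 and 9.87 in LKO CL316243. The change was 0.15 in LWT (adjusted p 0.146, limma) and 0.15 in LKO (adjusted p 0.12). Its sign turned under quantile normalization (-0.03 and -0.07) and in the authors' deposited table (-0.03 and -0.09), so no direction is given.

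Rbp4 (probe at chr19:38191129-38191188, mm9, minus strand) had lowest, median and highest levels of 9.38, 9.53 and 9.70 in LWT vehicle and 9.48, 9.63 and 9.75 in LWT CL316243. They were 9.47, 9.52 and 9.83 in LKO vehicle and 9.50, 9.62 and 9.70 in LKO CL316243, and all groups overlapped. The change was 0.07 in LWT (95% interval -0.06 to 0.21, adjusted p 0.42, limma) and 0.04 in LKO (95% interval -0.09 to 0.18, adjusted p 0.621). Quantile normalization gave -0.12 (adjusted p 0.0892) and -0.17 (adjusted p 0.0144), and values of the authors' deposited table gave -0.15 (adjusted p 0.0304) and -0.19 (adjusted p 0.00743). The direction of Rbp4 thus depended on the scaling.

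Genes of retinol transport and use (12 tested of 12) had 1 higher and 5 lower in LWT (18.9% and 19.4% of all genes), and 2 higher and 3 lower in LKO (20.9% and 19.4%), with median changes of -0.36 and -0.30. Cyp26a1, which degrades retinoic acid, was well above background on 6 of 6 LWT vehicle arrays and 0 of 6 LWT CL316243 arrays, and was at least 10.9-fold lower with CL316243 (adjusted p 4.79e-07, limma). For this bound each treated array was given the larger of its Cyp26a1 signal and the lowest signal of any probe that stood well above background there. In LKO it was well above background on 5 of 6 vehicle and 1 of 6 treated arrays and was called lower (adjusted p 0.000109), and no size is given because 5 of 6 treated arrays were not well above background. Rarb, a retinoic acid receptor, and Lrat, which esterifies retinol, fell in LWT (changes -0.92 and -0.71, adjusted p 0.0115 and 0.00976), with values of -0.63 and -0.27 in LKO, neither called. The interaction was called for 0 of the 12 retinol genes (5.41% of all genes), so their effects were not shown to differ between genotypes. Bco1, which cleaves beta-carotene, rose by 0.90 and 0.97 (adjusted p 0.00131 and 0.000687). Ttr, the partner of RBP4 in plasma, had values of 0.08 and 0.10, not called.

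Markers of cell types were read beside the members. Of all genes, 18.9% were called higher and 19.4% lower with CL316243 in LWT, and 20.9% and 19.4% in LKO. Hepatocyte markers (6 tested) had 1 higher and 0 lower with CL316243 in LWT and 2 higher and 1 lower in LKO, and their summed signal overlapped between all groups (1470 to 2020 times the 75th percentile). Macrophage markers had 0 of 6 called in either genotype with limma, and Clec4f, which defines Kupffer cells, ran from 3.31 to 4.14. Stellate markers had 1 and 2 of 6 higher, endothelial markers 2 higher and 2 lower in LWT and 1 higher and 2 lower in LKO, and cholangiocyte markers 1 and 2 of 5 higher. Stellate sums ran from 79.1 to 106 (LWT vehicle), 95.1 to 122 (LWT CL316243), 73.6 to 101 (LKO vehicle) and 96.5 to 120 (LKO CL316243). Endothelial sums overlapped between all groups (35.2 to 49.4). Cholangiocyte sums overlapped in LWT (3.67 to 6.47 under vehicle, 4.19 to 14.1 under CL316243). They did not overlap in LKO, with 3.51 to 6.70 (median 4.08) under vehicle and 7.08 to 14.1 (median 10.4) under CL316243. The brightest markers, Spp1 and Sox9, weigh most in this sum. From LKO vehicle to LKO CL316243, mean Spp1 went from 1.86 to 2.83, Sox9 from -0.77 to 1.42 and Epcam from -4.55 to -3.79. The defining marker Krt19 went from -2.94 to -2.70, with overlap, and Krt7 from -4.37 to -4.60.

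Neutrophil and lymphocyte markers (5 tested of 6, Cd79a not) had 2 higher and 1 lower in LWT (18.9% and 19.4% of all genes). In LKO 3 were higher and 0 lower (20.9% and 19.4%). S100a8 and S100a9, abundant in neutrophils, rose by 1.48 and 1.44 in LWT and 2.30 and 2.25 in LKO, while the neutrophil gene Ly6g had -0.38 (called) and -0.28 (not called). Their sum ran from 4.04 to 7.35 in LWT vehicle, 4.04 to 14.7 in LWT CL316243, 3.70 to 5.61 in LKO vehicle and 5.18 to 45.3 in LKO CL316243, where the highest mouse was replicate 3 and the next lay at 20.7. Each defining marker (Alb, Clec4f, Reln, Stab2, Krt19, Ly6g and Cd3e) was well above background on 6 of 6 arrays of every group. The part of cell makeup in the changes of the members was not tested.

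For each member called in at least 1 comparison, the genes of most like pattern were those with the smallest root mean square difference between log2 profiles over the 24 arrays, each centred on its mean, among 13927 tested genes that are no member and whose name is no probe, clone or gene model identifier. For Gdf15 these were Klf6 (0.51), Dusp8 (0.61) and Plk3 (0.66), where the median over these 13927 genes was 1.55. For Inhbe they were Crot (0.39), Tor3a (0.45) and Pex11a (0.46), with a median of 1.22, and for Enho they were Ndufaf3 (0.35), Tcaim (0.38) and Myh14 (0.40), with a median of 0.81. For Fst they were Opn1sw (0.75), Hypm (0.80) and Adamts9 (0.83), with a median of 1.61, where the single high mouse enters every profile. For Tsku they were Tbxa2r (0.35), Slc9a3r2 (0.38) and Epor (0.38), with a median of 0.68. For Lect2 they included Atg7 (0.18) and Cela1 (0.19), with a median of 0.44, and for Fetub Serping1 (0.10), Zfp1 (0.11) and Rpl10 (0.11), with a median of 0.34. Members with small changes have small differences from many genes, so these values are not compared between members.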

How the data were processed

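RNA from 24 mouse livers was hybridised to single-colour Agilent arrays. The deposited scanner tables hold background-subtracted intensities on a linear scale, and the submitters' processing notes name the scanner software that the authors used, Agilent Feature Extraction 10.10.1.1. The value table of the series, deposited by the authors, holds log2 values, which lay within 0.01 of the quantile-normalized log2 median signal for 99.26% of values over 31367 probes (median difference 0.000254). It served as an alternative.

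Spots flagged as outliers were dropped, processed intensities were divided by the array's 75th percentile, log2 values were taken and spots of a probe averaged. A probe was kept when 4 or more of the 6 arrays in some group read it well above background and every group had 3 values (32037 kept), and the brightest represented its gene (21331 genes, mm9 probe positions). One mean per group was fitted to 24 arrays with limma 3.58.1 (R 4.3.3, data.table version 1.17.8), with 5 comparisons, Benjamini-Hochberg adjustment over all genes and a threshold of 0.05. The script was tested on simulated data. Bounds and intervals cover the spread between these mice, whose number limits the precision.

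Each slide (3 in all) held 2 mice of every group. Alternatives were background correction, normalization, filters, probe choice, blocks, samples in the fit, variance model, each mouse left out and, chosen after seeing the data, flagged spots kept. The members, gene lists and markers were chosen with earlier results of these data known. Of each list, the genes named are up to 4 with the largest called change in LWT and up to 2 called in the interaction, and others named besides were chosen after their values were seen. One of the genes of like pattern is not reported here. Protein sequences were not used here. Exon and UTR annotation of the probes was not used here.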

Additional observations from a re-analysis of the deposited data

Results flagged for a closer look

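In 40 groups of mice (10 genes, 4 groups), 4 had a highest or lowest mouse isolated by Dixon's criterion at the 95% level, and chance gives about 1 in 20. Fst in LKO CL316243 replicate 3 had a level of 5.23, where the next was -1.58 and the lowest -1.86. Tsku in the same mouse had -2.15, where the next was -0.34 and the highest 0.42. Enho in LWT vehicle replicate 5 had 4.31, below the next at 5.04 and the highest at 5.30. Rbp4 in LKO vehicle replicate 6 had 9.83, above the next at 9.57 and the lowest at 9.47. The difference between genotypes in the CL316243 effect on Inhbe was called by limma as an interaction of -2.41 (adjusted p 0.00038).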

How the results depend on the processing

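Each result was recomputed under 13 alternatives (12 for the interaction), without each of 24 mice and within each of 3 slides. Called Gdf15, Inhbe, Enho, Lect2 and Fetub effects of CL316243 kept their direction and call under each alternative and without each mouse, and their direction within each slide. Fitting only the 12 mice compared left 1 member called between genotypes under CL316243 (Inhbe) and 4 in LKO. The shares of all genes called were then 10.3% and 35.3%, against 15.9% and 40.3% in the fit of all mice. Fst (adjusted p 0.11, limma) and Tsku (0.0845) lost their LKO calls in the fit of 12 mice. Tsku also lost its call with no filter on dim probes (adjusted p 0.0651), and Fetub gained one between genotypes under CL316243 in 3 alternatives (adjusted p 0.0211 to 0.0487). Leaving out a mouse gave 3 to 4, 5 to 7, 1 to 2, 0 to 1 and 2 to 3 members called for LWT, LKO, interaction, vehicle and CL316243. The shares of all genes called ran from 34.3% to 41.7%, 36.7% to 41.7%, 4.38% to 7.2%, 0.881% to 1.42% and 13.4% to 18.6%. The upper ends of the interaction and vehicle member counts came without LKO CL316243 replicate 3, where Fst is called. Ahsg in LKO passed without LKO vehicle replicate 6 (0.21, adjusted p 0.0215).

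The signs below turned, and the cause was not tested. Quantile normalization gave Ahsg -0.034 (LWT), -0.069 (LKO) and -0.03 (genotypes under CL316243), Rbp4 -0.119 and -0.174, and Fetub 0.009 (genotypes under vehicle). The authors' deposited table gave Ahsg -0.029, -0.092 and -0.042, Rbp4 -0.151 and -0.189, Inhbe -0.008 and Fetub 0.004 (both under vehicle). Normexp gave Ahsg -0.001 and Rbp4 0.002 under CL316243. Outlier spots kept gave an Ahsg interaction of 0.047. The LKO change of Tsku, called at -0.88 over all slides, was 0.041 within slide 2, the 1 turn within a slide among 12 called results; of 38 results not called, 23 had the other sign within at least 1 slide, such as the Gdf15 interaction (-0.438), Lect2 in LWT (0.257) and Inhbe in LKO (-0.609). Without a mouse, turned values ranged from -0.051 to 0.044 (Ahsg, vehicle), -0.034 to 0.047 (Ahsg, CL316243), -0.041 to 0.058 (Ahsg, interaction), -0.04 to 0.028 (Fetub, vehicle), -0.508 to 0.377 (Inhba, CL316243), -0.19 to 0.696 (Inhba, interaction), -0.164 to 0.153 (Inhbe, vehicle), -0.037 to 0.016 (Rbp4, CL316243), -0.032 to 0.049 (Rbp4, vehicle), -0.057 to 0.024 (Rbp4, interaction), -0.136 to 0.101 (Tsku, LWT) and -0.445 to 0.07 (Tsku, CL316243).

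Whether the replicate numbers of the labels pair the mice was not settled. Deviations from the group means correlated above 0.1 in 9 of 36 pairs with the same number (median 0.05, range -0.18 to 0.42). Compared with the mice of other groups, 10 of 24 mice correlated best with 1 of their own number. The count that chance would give was not computed. A fit with the replicate number as a block called 3, 6, 1, 0 and 2 members, the same counts. It called 39%, 40.7%, 5.71%, 1.27% and 16.6% of all genes.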

Other observations

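Other secreted liver proteins, 14 tested of a list of 15 (Gpnmb did not pass the filter), had 6 higher and 2 lower with CL316243 in LWT (18.9% and 19.4% of all genes) and 7 higher and 2 lower in LKO (20.9% and 19.4%), or 5 and 1 without LKO CL316243 replicate 3. Lcn2, lipocalin 2, rose by 6.07 in LWT (adjusted p 3.78e-07, limma) and 6.79 in LKO (adjusted p 2.03e-07), from levels of 0.54 to 3.14 and -0.46 to 2.18 under vehicle to 4.61 to 8.96 and 5.87 to 8.68. Igfbp1, which binds insulin-like growth factors, rose by 3.64 (adjusted p 0.000176) and 4.53 (adjusted p 1.85e-05). Angptl8, named Gm6484 on the array, a secreted regulator of lipoprotein lipase, fell in both (changes -2.58, adjusted p 0.00141, and -1.54, adjusted p 0.0415), with overlap between the groups.

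Fgf21 was well above background on 6 of 6 LWT vehicle arrays and 0 of 6 LKO vehicle arrays, and CL316243 raised it in both genotypes, by 5.03 on the log2 scale in LWT (adjusted p 5.04e-07, limma) and at least 29.6-fold in LKO. Under CL316243 it lay lower in LKO than in LWT (difference -3.67, adjusted p 6.24e-05, limma). Inhbe had genotype differences of 0.00 under vehicle and -2.40 under CL316243.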
